A study of Homo sapiens with 6 samples.

Results

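The gasdermins GSDMA, GSDMB, GSDMC, GSDMD and DFNA5 (now named GSDME) and the GSDMB neighbours ORMDL3 and ZPBP2 were read in a liver cancer line with and without knockdown of ASPP2. These 7 genes were picked by name, as 1 gene family and 2 genes that lie beside GSDMB in chromosome band 17q21, and all their features on the array are given, 12 of 45033. The group itself was chosen by the fall of GSDMB in the comparison described here, so the changes of its members are a description and not an independent test. HCC-LM3 is a human hepatocellular carcinoma line that metastasises readily when grafted. Its cells carried a lentivirus with an shRNA against ASPP2, the product of TP53BP2 (shASPP2), or a control lentivirus (shNon), and RNA was extracted 1 week later. Each group has 3 samples, grown as separate cultures according to the labels, and each was hybridised to 1 single-colour NimbleGen array. Both groups were infected, so the comparison holds no uninfected cells, and the labels name no clone or second shRNA.

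Gasdermins are built from an amino-terminal domain that can form membrane pores and a carboxy-terminal domain that holds it inactive. A protease cut in the linker frees the pore-forming part, and the pores release cytokines and can kill the cell by pyroptosis. The best known cuts are those of GSDMD by inflammatory caspases, GSDMC by caspase-8 and GSDMB by granzyme A from killer lymphocytes. ORMDL3 is a protein of the endoplasmic reticulum that restrains serine palmitoyltransferase, the entry enzyme of sphingolipid synthesis, and ZPBP2 is a protein of the sperm acrosome. The values concern messenger RNA alone and say nothing of cleavage or pore formation.

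Values are RMA intensities on a linear scale, and a level is set against the array's own random-sequence probes, which match no transcript and read 30.4 to 33.3 on the 6 arrays. A feature counts as above background where it exceeds 2 times that level. Both TP53BP2 features were lower in every shASPP2 array than in any shNon array, with log2 fold changes of -1.11 and -1.41. Such a separation was seen in 9.17% of all features. Neither TP53BP2 feature was called by limma, with adjusted p-values of 0.203 and 0.0991 in the same order. Arrays of shNon correlated less with each other (mean r of 0.962 to 0.969 for an array across features) than those of shASPP2 (0.983 to 0.984). Of 12 hepatocyte markers, 7 were above background on all 6 arrays, namely FGB, HNF4A, FOXA2, TF, KRT8, KRT18 and ALB. ALB was only just so, at 2.66 times the random-probe level on average in shNon and 2.23 times in shASPP2. AFP was above background on 2 arrays and APOA1, APOB, TTR and SERPINA1 on 1 array each. FGB, the fibrinogen beta chain, was the 1 marker called by limma, at -1.73 (adjusted p = 0.0336). Of all genes, 0.14% were called by their brightest feature. The median log2 fold change of the 12 hepatocyte markers was 0.12. Among them 3 had every shASPP2 array below every shNon array and 5 every one above. The shares of all genes were 9.52% and 9.3%. Of 8 T and NK cell markers none was above background on all 6 arrays, and the summed intensity of that list was 390 to 400.5 in shNon and 340 to 425 in shASPP2. The summed intensity of 6 myeloid markers, 2 of them above background on all 6 arrays, was 2938 to 3968 in shNon and 3918 to 4450 in shASPP2. Most of it came from CD68, which read 3017, 3493 and 2618 in shNon and 3425, 3984 and 3589 in shASPP2. The groups overlapped on CD68, and CD14 and CSF1R were above background on no array. The sum over 6 fibroblast markers (2 above) was 475 to 694 and 552 to 722, and that over 7 germ cell markers (0 above) 355 to 467 and 293 to 383. The sum over 7 keratinocyte markers was 961 to 3540 and 3491 to 6091, most of it from KRT1, the 1 marker above background on all 6 arrays, whose brightest feature had a log2 fold change of 1.30 and whose other feature had -0.59. The part of other cell types in the results below was not tested beyond these levels.

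GSDMB, the gasdermin cut by granzyme A, was lower in all 3 shASPP2 arrays on all of its 3 features. The brightest, NM_018530 (transcript at chr17:35314373-35327319, hg18), read 587, 584 and 624 in shNon and 216, 233 and 212 in shASPP2. The 3 arrays of each group lay close together, and every shASPP2 array was far below every shNon array. The feature AK000409, annotated over nearly the same span, to 35328369, read 358, 465 and 513 against 146.8, 188 and 139. The feature AF258572, which covers only the low-coordinate end of the gene up to 35317086, read 318, 384 and 426 against 144, 188 and 156. On the last pair of features shNon array 1 was the lowest control, and on all 3 shASPP2 array 2 was the highest knockdown array. The groups did not overlap on any of the 3.

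The log2 fold change of GSDMB, shASPP2 minus shNon, was -1.44 on NM_018530 (SE 0.162, 95% interval -1.82 to -1.06), which leaves 36.8% of the control signal. It was -1.49 on AK000409 (SE 0.218, 35.6% left) and -1.21 on AF258572 (SE 0.200, 43.3% left). In the limma fit over all features NM_018530 had an adjusted p of 0.0373, AK000409 0.0955 and AF258572 0.123, so that 1 of the 12 member features was past 0.05, where 0.138% of all features were and 0.0844% were called lower. These p-values place the features in the whole fit and support nothing, since the fall of GSDMB in this contrast is what drew attention to the group. Without any 1 of the 6 arrays NM_018530 kept log2 fold changes of -1.48 to -1.41, but its adjusted p rose to between 0.106 and 0.315. RNA was taken from whole cultures, so fewer cells with GSDMB transcripts and less transcript in each cell cannot be told apart.

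**Figure D1:**
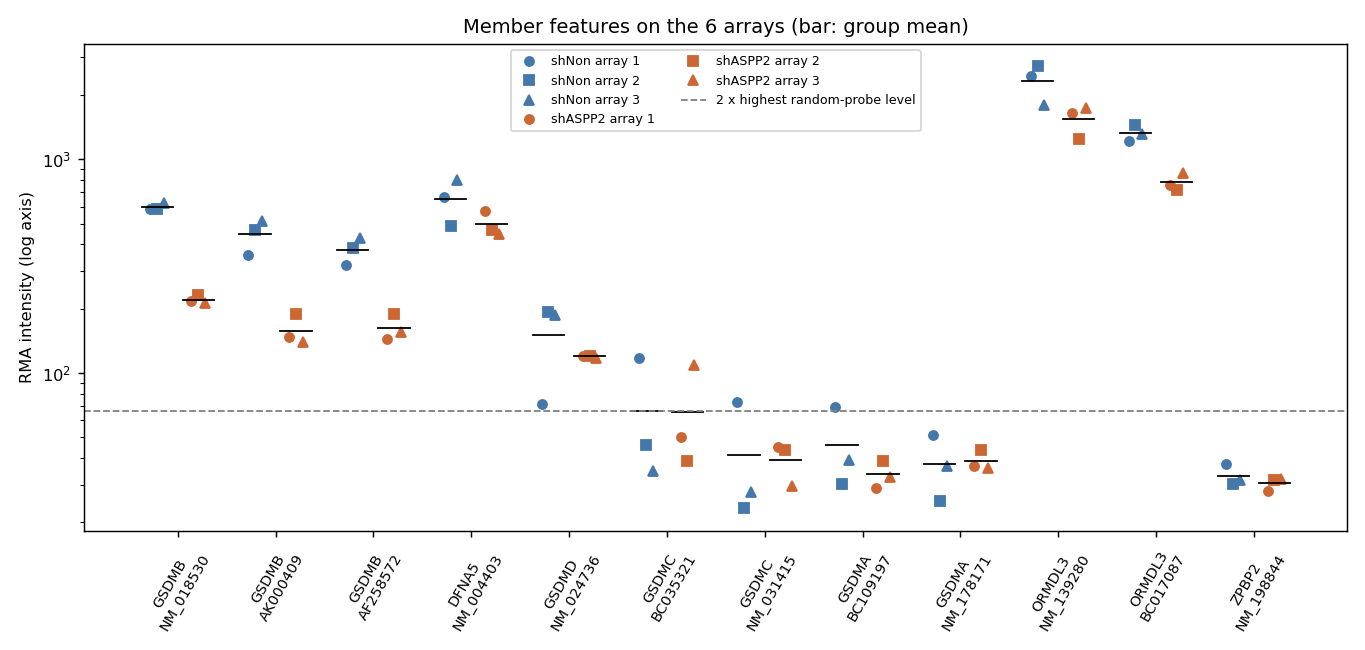
RMA intensity (log axis) of each of the 12 member features on the 6 arrays, shNon in blue and shASPP2 in orange, with symbols for array number, a short bar for each group mean and a dashed line at 2 times the highest random-probe level. The groups are apart on the 3 GSDMB and 2 ORMDL3 features, and the GSDMC, GSDMA and ZPBP2 features lie mostly under the dashed line.

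ORMDL3, the sphingolipid regulator, was the other member whose groups did not overlap. Its features end 2452 bases from the nearest GSDMB feature, at chr17:35330821-35337380 and chr17:35330821-35337351 (hg18). On BC017087 it read 1209.7, 1441 and 1314 in shNon and 757, 719 and 861 in shASPP2, a log2 fold change of -0.76 (SE 0.176, 95% interval -1.18 to -0.35). On NM_139280 it read 2439, 2724 and 1793 against 1638, 1239.7 and 1737, a log2 fold change of -0.59 (SE 0.234, 95% interval -1.13 to -0.04). On the second feature shNon array 3 came close to shASPP2 array 3, so the separation was narrow there. Neither feature was past the threshold in limma, with adjusted p-values of 0.212 and 0.412. With GSDMB this makes 5 of 12 member features with every shASPP2 array below every shNon array, against 9.17% of all features, and 0 with every one above, against 9.46%. The fall of GSDMB chose the group, and features of the same gene share their RNA, so this count is a description. On BC017087 58.9% of the ORMDL3 control signal was left and on NM_139280 66.6%, and whether the change differs from that of GSDMB was not tested.

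Promoter sequence is shown for ORMDL3, the neighbour that was lower along with GSDMB, and for GSDMA and ZPBP2, the genes on the outer sides of that pair, so that the 3 can be compared. Each window runs from 250 bases before to 50 bases after a RefSeq start site on GRCh38.p14, whose coordinates differ from the hg18 positions above. The RefSeq table holds a window for 4 of the 7 members and none for GSDMB, GSDMC or GSDMD, so the promoter of GSDMB is not shown. The ORMDL3 window is chr17:39927552-39927851 on the minus strand, the outermost of 3 in the table, GSDMA is chr17:39962754-39963053 and ZPBP2 chr17:39867952-39868251, both on the plus strand. Capitals mark matches on either strand to any of 4 motifs. The first is ACTACAANT, part of the longer site that the zinc finger protein ZNF143 binds. The second is GGGCGG, the box that the transcription factor Sp1 binds in many housekeeping promoters. The third is TGACGT, part of the element that the cyclic AMP response factor CREB binds. The last is TATAAA, the box that positions the general transcription machinery in some promoters.
ORMDL3: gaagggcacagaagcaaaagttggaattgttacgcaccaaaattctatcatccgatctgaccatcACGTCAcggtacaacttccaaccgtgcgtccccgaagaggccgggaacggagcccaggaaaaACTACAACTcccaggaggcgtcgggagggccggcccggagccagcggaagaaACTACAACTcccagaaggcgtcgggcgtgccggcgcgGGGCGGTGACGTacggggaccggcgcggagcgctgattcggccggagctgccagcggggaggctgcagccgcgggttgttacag
GSDMA: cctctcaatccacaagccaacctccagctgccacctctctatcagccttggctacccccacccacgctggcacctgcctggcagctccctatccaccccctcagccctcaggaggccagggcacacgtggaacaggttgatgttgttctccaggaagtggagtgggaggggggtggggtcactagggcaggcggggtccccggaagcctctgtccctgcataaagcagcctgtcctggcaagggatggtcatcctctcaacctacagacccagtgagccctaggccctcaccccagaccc
ZPBP2: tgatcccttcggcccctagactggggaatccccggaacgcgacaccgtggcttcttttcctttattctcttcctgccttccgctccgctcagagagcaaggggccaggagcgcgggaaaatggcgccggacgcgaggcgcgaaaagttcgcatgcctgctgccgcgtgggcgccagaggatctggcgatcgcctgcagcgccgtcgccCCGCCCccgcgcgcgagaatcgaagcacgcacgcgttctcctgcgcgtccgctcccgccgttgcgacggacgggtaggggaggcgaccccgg

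The ORMDL3 window held 2 matches to ACTACAANT, 2 to TGACGT and 1 to GGGCGG, and 1 of the TGACGT matches directly follows the GGGCGG match without overlapping it. Among 35116 RefSeq windows of the same length, 1.43% held ACTACAANT at least once and 0.0968% at least 2 times. For TGACGT these shares were 7.98% and 2.2%, and 45.0% of windows held GGGCGG at least once. ACTACAANT was added to the search after the ORMDL3 window had been read, so these shares are a description. The ZPBP2 window held 1 match to GGGCGG and the GSDMA window none to any of the 4, and TATAAA, present in 11.5% of windows, was in none of the 3. The windows also differed in CG dinucleotides, 32 in ORMDL3, 43 in ZPBP2 and 4 in GSDMA, where the median window has 14. A match is a stretch of letters, and no binding was measured here.

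ZPBP2, the acrosome protein gene on the other side of GSDMB (chr17:35277994-35287675, hg18, 26698 bases away), was at the level of the random probes in both groups. It read 37.4, 30.2 and 31.6 in shNon and 28.0, 31.8 and 31.9 in shASPP2, on average 1.02 and 0.997 times the random-probe level. Its log2 fold change of -0.11 (95% interval -0.53 to 0.30) therefore carries no measure of the transcript. GSDMA, a gasdermin mainly known from skin (chr17:35372751-35387545, hg18, 44382 bases from GSDMB), was also dim. Its feature NM_178171 read 51.4, 25.1 and 36.7 against 36.6, 43.5 and 35.9 and was above background on no array. Its feature BC109197 read 69.3, 30.4 and 39.2 against 29.1, 38.9 and 32.6 and was above background on shNon array 1 alone. The log2 fold changes had opposite signs, 0.09 (95% interval -0.56 to 0.74) and -0.39 (-1.12 to 0.35), and the groups overlapped on both. Without shNon array 1 BC109197 had -0.05, and without shNon array 2 -0.64.

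The wider interval was read to set GSDMB and ORMDL3 beside their surroundings. Within 500000 bases of the GSDMB features the array names 29 genes, 4 of them members, and 17 of the other 25 were above background on all 6 arrays. None of these 25 was past an adjusted p of 0.05 in limma, and 2 had an unadjusted p under 0.05, where 11.6% of all genes had one by their brightest feature. Their median log2 fold change was 0.06, with 10 lower and 15 higher. Over all features the median was 0.01. PSMD3, a proteasome subunit gene beyond GSDMA and the nearest bright gene on that side, read higher on average (3154 ± 375 in shNon and 3846 ± 612 in shASPP2, SD, n = 3), and its groups overlapped (log2 difference 0.28, SE 0.200; adjusted p = 0.634). CSF3, which encodes a granulocyte growth factor, lay next to it and was above background on no array, at -0.17.

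On the ZPBP2 side, IKZF3, which encodes a lymphocyte transcription factor, has 7 features. The brightest was above background on 1 array, at -0.60 on the log2 scale (SE 0.375, limma adjusted p = 0.590), and the other 6 ranged from -0.44 to 0.39. GRB7, a receptor adaptor gene, had 0.12 and MIEN1 0.07, both above background on all 6 arrays. The genes with an unadjusted p under 0.05 both lie on the ORMDL3 side of GSDMB, 174197 and 259763 bases away. They were NR1D1, a clock repressor, at 0.56 (adjusted p = 0.356), and RAPGEFL1 at -0.69 (adjusted p = 0.270). Of the 25 genes, 4 had all shASPP2 arrays below all shNon arrays and 2 all above, where 9.52% and 9.3% of all genes did by their brightest feature.

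**Figure D2:**
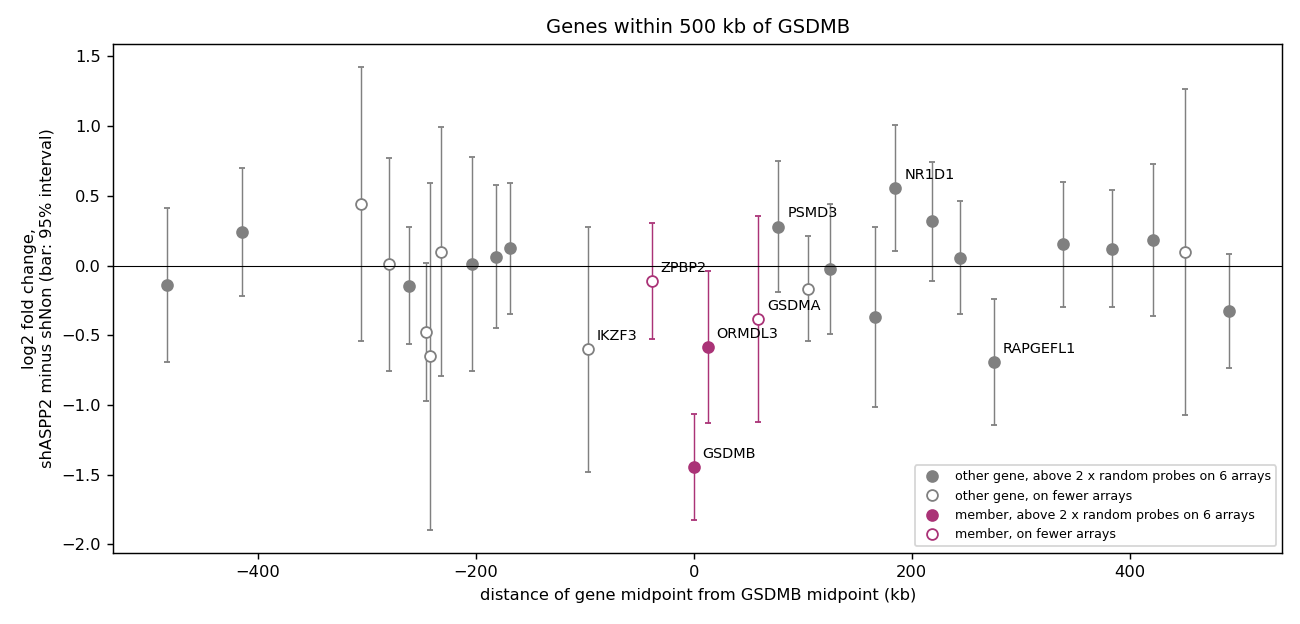
Log2 fold change (shASPP2 minus shNon) with limma's 95% interval for the brightest feature of each named gene within 500000 bases of GSDMB, against the distance of the gene's midpoint from that of GSDMB in kb. Members are purple, filled points were above background on all 6 arrays, and GSDMB at -1.44 lies lowest, with ORMDL3 at -0.59 beside it and PSMD3 at 0.28. RAPGEFL1 at -0.69 and, as open points, PNMT at -0.65 and IKZF3 at -0.60 lie lower than ORMDL3.

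DFNA5, a gasdermin first known as a deafness gene, was clearly expressed (NM_004403, chr7:24704499-24763888, hg18). It read 664, 486 and 797 in shNon and 574, 468 and 447 in shASPP2. The control arrays spread widely, and shNon array 2 fell below shASPP2 array 1, so the groups overlapped. The log2 fold change was -0.37 (SE 0.235, 95% interval -0.91 to 0.18, limma adjusted p = 0.599). It was -0.20 without shNon array 3 and -0.56 without shNon array 2.

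GSDMD, the main gasdermin of inflammasome signalling, was low but above background on all 6 arrays (NM_024736, chr8:144712102-144716372, hg18). It read 72.0, 193 and 186 in shNon and 121, 120 and 118 in shASPP2. The knockdown arrays were nearly equal and lay between shNon array 1 and the other two controls. The log2 fold change was -0.20 (SE 0.377, 95% interval -1.08 to 0.68), and it was -0.66 without shNon array 1, 0.05 without shNon array 2 and 0.02 without shNon array 3.

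GSDMC, the gasdermin cut by caspase-8, has features at chr8:130829624-130867860 and chr8:130829623-130868316 (hg18). BC035321 read 118, 46.0 and 34.8 in shNon and 50.5, 38.6 and 109 in shASPP2, so that 1 array of each group was above background and the rest were not. NM_031415 read 73.1, 23.3 and 27.6 against 44.9, 43.7 and 29.5, with shNon array 1 alone above background. shNon array 1 was the highest control on both features, while the high shASPP2 array 3 of BC035321 was the lowest of its group on NM_031415. The log2 fold changes were 0.06 (95% interval -1.20 to 1.31) and 0.10 (-0.91 to 1.12), and both changed sign when single arrays were left out.

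The dim members thus had their highest control value on shNon array 1. For ZPBP2 that value was 37.4, against 30.2 and 31.6 in the other controls, all near the random-probe level. This array was the highest control on all 4 member features that were above background on at most 1 array, namely both of GSDMA, NM_031415 of GSDMC and ZPBP2. Over the 16083 such features of the array it was the highest control in 33.6%, shNon array 2 in 29.7% and shNon array 3 in 36.7%. The same array was the lowest control for GSDMD and for the AK000409 and AF258572 features of GSDMB. Whether shNon array 1 stands apart at these features was not tested.

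**Figure D3:**
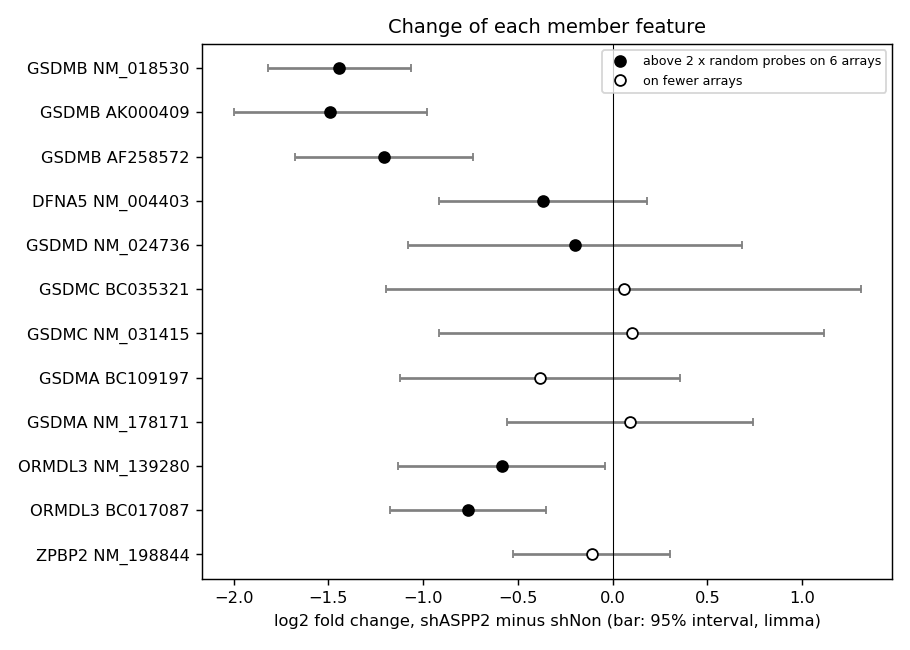
Log2 fold change (shASPP2 minus shNon) of each member feature with limma's 95% interval, filled where the feature was above background on all 6 arrays. The upper ends of the 3 GSDMB intervals are -1.06, -0.98 and -0.74, the 2 ORMDL3 intervals end at -0.04 and -0.35, and the other 7 span 0.

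Across the family and its neighbours, 9 of 12 features had a lower mean log2 level in shASPP2 and 3 a higher one, with a median log2 fold change of -0.38. GSDMB contributes 3 of these features and ORMDL3 another 2, and features of 1 gene share their RNA. Of the 12, 7 were above background on all 6 arrays, those of GSDMB, ORMDL3, DFNA5 and GSDMD.

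Genes that act around the gasdermins were read from lists, each gene by its brightest feature. Of all genes read so, 11.6% had an unadjusted p under 0.05, 9.52% had every shASPP2 array below every shNon array and 9.3% every one above, and the counts below are to be read against these shares. The proteases known to cut gasdermins were 11 genes with a median log2 fold change of -0.17, of which 6 were above background on all 6 arrays, and limma called none of them, nor did any have an unadjusted p under 0.05. CASP4, a sensor of bacterial lipopolysaccharide that cuts GSDMD, had the smallest p of the list with -0.37 (SE 0.190, adjusted p = 0.521), followed by CASP6 at -0.22, CASP5 at -0.21 and GZMA at -0.38. CASP5 is a close relative of CASP4, and whether their features share signal was not tested. GZMA, the granzyme that cuts GSDMB, was above background on 3 arrays, and its other feature had 0.47, so its value measures little.

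Inflammasome sensors and adaptors gave 15 genes with a median of 0.09, none called by limma and 1 with an unadjusted p under 0.05. That gene was TXNIP, a thioredoxin-binding protein that can engage NLRP3, at 186, 181 and 207 in shNon and 395, 328 and 276 in shASPP2. Its log2 fold change was 0.79 (SE 0.197, adjusted p = 0.237), its other feature had 1.23, and its groups did not overlap. NLRP3 was above background on no array. PYCARD, the adaptor that joins sensors to CASP1, was expressed on all arrays with a log2 fold change of 0.17, and CASP1 was above background on 4. Next in order of p were NLRC4 at -0.51, DPP9 at 0.40 and DPP8 at -0.29, with -0.11, 0.04 and -0.03 on their other features, and none passed the test.

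Cargo, rupture and repair genes were 12, with a median of -0.02, none called and 3 with an unadjusted p under 0.05. The cytokine genes IL1A and IL1B differed in direction. IL1A read 63.7, 72.3 and 52.9 in shNon and 155, 154 and 99.5 in shASPP2 (log2 fold change 1.10, SE 0.242, adjusted p = 0.198). IL1B read 167, 213 and 165 against 113, 105 and 66.5 (-0.96, SE 0.252, adjusted p = 0.254). Both had groups that did not overlap, and IL1A was near background in shNon. PANX1, a channel protein, had 0.47 (adjusted p = 0.413; its other features 0.60 and 0.67), and NINJ1, which ruptures the membrane after pore formation, -0.22 (adjusted p = 0.681).

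Transcription factors known to act on gasdermin genes were 6, with a median of -0.05 and none called or with an unadjusted p under 0.05. IRF2, an activator of GSDMD, had a log2 fold change of -0.11 (SE 0.209), IRF1 0.07 and GATA3 0.35.

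Sphingolipid synthesis, the pathway that ORMDL proteins restrain, gave 16 genes with a median of -0.02, none called and 3 with an unadjusted p under 0.05. SPTSSB, a small subunit of serine palmitoyltransferase, read 162, 226 and 397 in shNon and 88.1, 121 and 85.5 in shASPP2. Its log2 fold change was -1.33 (SE 0.340, adjusted p = 0.247), and its control arrays spread widely, with shNon array 3 the highest. KDSR, which reduces the product of that enzyme, read 1041, 857 and 1138 against 774, 764 and 667 (-0.45, SE 0.188, adjusted p = 0.424). SPTLC2, a catalytic subunit, was higher at 387, 312 and 384 against 479, 450 and 548 (0.45, SE 0.185, adjusted p = 0.421), but its other feature had -0.32. SPTSSA had -0.49 (adjusted p = 0.465), with -0.81 to -0.55 on its other 3 features. The close relatives of ORMDL3 had overlapping groups, with log2 fold changes of 0.16 (SE 0.252) for ORMDL1 and -0.01 (SE 0.180) for ORMDL2, both above background on all 6 arrays. Over these 5 lists and ZPBP, a relative of ZPBP2 that was above background on no array, no gene passed, where 0.14% of all genes did by their brightest feature. With trend and robust variance SPTSSB was the 1 gene past the threshold (adjusted p = 0.0460).

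**Figure D4:**
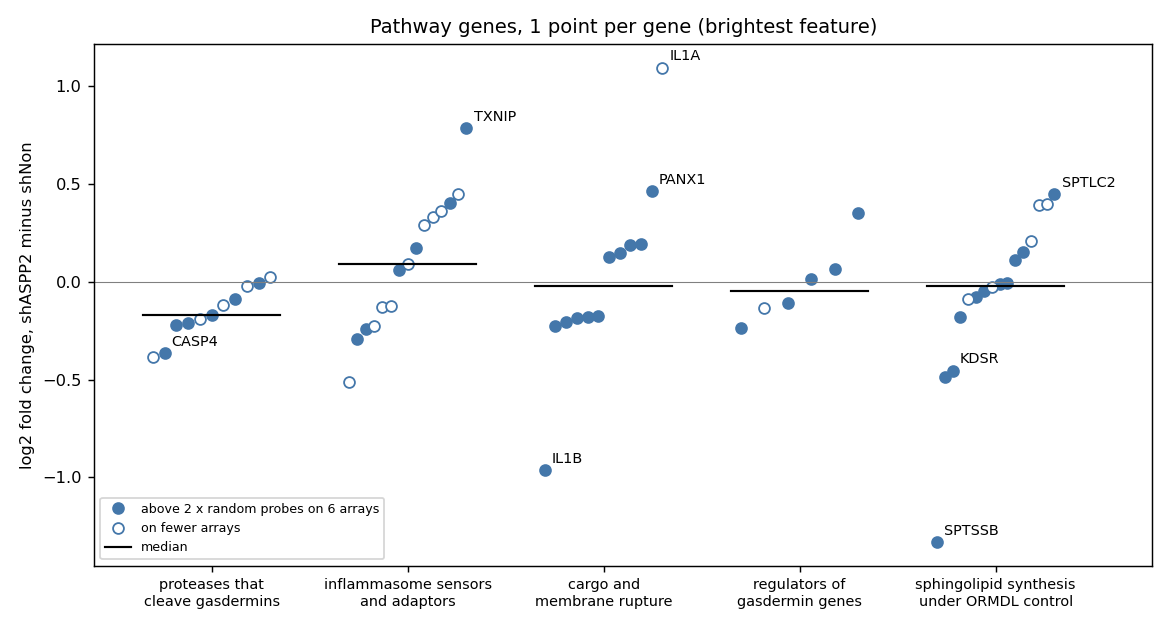
Log2 fold change (shASPP2 minus shNon) of each listed pathway gene by its brightest feature, filled where it was above background on all 6 arrays, with a bar at each list's median. The medians lie between -0.17 and 0.09, and SPTSSB at -1.33, IL1B at -0.96 and IL1A at 1.10 lie farthest from 0.

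Finally, the genes whose pattern over the 6 arrays was most like that of GSDMB (NM_018530) were taken by Pearson's correlation of log2 values, as a description. The highest were ADH1C (r = 0.999), an alcohol dehydrogenase, LCN2 (0.999), an iron-siderophore carrier, GGA2 (0.998), a Golgi sorting adaptor, CAST (0.998), the calpain inhibitor, and NOX1 (0.998), an NADPH oxidase. All 5 were lower in shASPP2, by log2 fold changes from -3.01 for ADH1C to -0.80 for CAST. With 6 arrays in 2 groups such values mostly restate the group difference, and 447 other features reached an r of 0.95. Among the members the correlation with NM_018530 was 0.95 and 0.74 for the ORMDL3 features, 0.63 for DFNA5, 0.22 for GSDMD and between -0.13 and 0.47 for the GSDMA, GSDMC and ZPBP2 features.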

How the data were processed

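Per the labels, total RNA of 6 HCC-LM3 cultures, 3 shNon and 3 shASPP2, was hybridised in 1 colour (Cy3). The authors deposited 1 RMA intensity per feature and array on a linear scale, per the submitters' processing notes. RMA equalises arrays, and fold changes near background can be understated, by how much was not tested here. Settings of RMA, scanner software and batches: not given in the sources used here. Of 45033 features, 45031 were summarised from 3 probes; 1 further row of 2508 random probes gave the background and was left out of the fit. The series' value table, also deposited by the authors, was identical cell by cell. The array's names and hg18 positions were used, with symbols updated by gene identifier (38916 features) or accession (78) from a RefSeq table of GRCh38.p14; 3954 features kept the file's name and 2085 had none. Probe sequences and strands were not used here, and PJVK, a gasdermin relative, was not analysed here.

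Log2 intensities of all features were fitted with limma 3.58.1 (lmFit, eBayes) in R 4.3.3, with no term besides group. Two-sided p-values were adjusted by Benjamini-Hochberg over 45033 features, with a threshold of 0.05. Errors of fold changes are moderated standard errors (SE). The number of arrays limits the precision: an exact permutation test of 3 against 3 cannot go below p = 0.1. The fit was checked on simulated data. Members and lists were chosen with earlier results of these data known. Named were all member features, the 4 genes of each pathway list with the smallest p, the 4 nearest genes on each side of GSDMB, and the 5 genes most correlated with GSDMB, leaving out locus and clone names and genes below the median level in both groups. Some listed genes that entered these counts are not reported here by name. The other genes with values were named after these were seen. Each gene in a list is given by its brightest feature. Alternatives were other normalizations, filters on dim features, trend and robust variance, the replicate block, pseudocounts and leaving out each array.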

Additional observations from a re-analysis of the deposited data

How the results depend on the processing

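GSDMB (all 3 features), ORMDL3 (both), DFNA5 and BC109197 of GSDMA kept their direction under every alternative run, although BC109197 ranged from -0.70 to -0.05 and DFNA5 from -0.56 to -0.20, and ZPBP2 did so except at exactly 0 after subtraction of the random-probe level. The log2 fold change of NM_018530 of GSDMB lay between -1.58 and -1.38 and its adjusted p between 4.71e-04 and 0.338, past the threshold in 10 of 17 alternatives. The deposited table is in both counts, and as its cells were identical it could only repeat the main fit. Of the 12 member features, 1 was past the threshold with the deposited table, median centring or 1 feature per gene, 2 with cyclic loess (GSDMB), 3 after removing features not above 2 times the random probes on 3 arrays, 4 after removing features below the median level, 4 with trend and robust variance (the 3 of GSDMB and BC017087 of ORMDL3), and 0 without any single array. Of all features, 62 were past it, and 405, 207 and 952 under those filters and that variance model in the order median, random probes, trend, 24 with 1 feature per gene, and 0 to 17 without single arrays. Of the list genes 0 were past it in the main fit, with the replicate block and without any single array, and 1 with trend and robust variance. The lists were not counted under the other normalizations or the filters.

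The replicate block left 0 of all features and 0 member features past the threshold, with -1.44 for NM_018530 (adjusted p = 0.338). Same-numbered arrays did not deviate together (r of 0.06, -0.08 and -0.13 for numbers 1, 2 and 3), and not every array correlated best with its own number, so the numbers are not taken as pairs.

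Reversals concerned members near background and GSDMD. NM_178171 of GSDMA turned to -0.15 as a mean of both features and to -0.17 after subtracting the random-probe level, and lay between -0.17 and 0.34 without single arrays. NM_031415 of GSDMC turned to -0.26 with that subtraction and lay between -0.22 and 0.61 without single arrays, BC035321 between -0.38 and 0.58, and GSDMD between -0.66 and 0.05. The cause was not tested. Signals near the random-probe level limit what can be said of GSDMA, GSDMC and ZPBP2.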
